A study of Mus musculus with 12 samples.

Results

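Of the 6 genes described here, Arntl, Clock and Npas2 form the activating side of the circadian clock in mouse liver. Rora and Nfil3 belong to its ROR/NFIL3 loop, and Bhlhe40 encodes a repressor. All 6 were taken by symbol from a table of 24537 genes, which listed each of them. Tests were run on the 10593 genes that reached an FPKM of 1 in 3 or more libraries. These included 5 of the 6, while Npas2 was below that level in every library. FPKM is the number of reads on a gene's exons, divided by exon length and by the size of the library. RNA was sequenced from the livers of 12 male C57Bl/6J mice, 6 weeks old at the start and housed 1 per cage, in 4 groups of 3. Con mice ate their chow ad libitum. Mice under calorie restriction (CR) received another chow, a fortified form, at 30% less calories than Con mice, adjusted weekly by body weight. Each diet was sampled at day 25 and at day 30, 2 time points chosen by the study on either side of a slowing of hepatic protein synthesis. No group carried a genetic change. Every mouse was given heavy water before tissue collection to label new proteins.

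The light phase ran from 7 h to 19 h. CR mice received their ration once a day at noon, whereas Con mice had food at all times, and the hour of tissue collection and its distance from the last meal are not given in the sources used here. Calorie intake, type of chow, meal time and position in the daily cycle therefore cannot be told apart in any comparison of CR with Con below. In liver tissue, fewer cells of a type and less RNA per cell of that type cannot be told apart either.

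In the clock of mammalian cells, CLOCK or its relative NPAS2 pairs with BMAL1, the protein of Arntl, and the pair switches on genes that carry E-boxes. Among these genes are the Per and Cry genes, whose proteins return to block the pair, and the REV-ERB genes Nr1d1 and Nr1d2, whose proteins repress Arntl. RORα, the protein of Rora, activates Arntl through the same DNA element that the REV-ERBs occupy, NFIL3 represses genes with D-boxes, which DBP, TEF and HLF activate, and BHLHE40 (DEC1) is a repressor that binds E-boxes. In liver these rhythms also follow the time of meals.

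The element shared by RORs and REV-ERBs is the DNA on which this loop turns, and it is shown for the members in whose promoter windows it was found. The letters GTAGGTNA were searched on both strands of RefSeq promoter windows of 300 bases, from 250 before to 50 after a start site (GRCm38.p6). The search covered 8 windows that matched 5 of the 6 genes. Each line gives 30 bases of the forward strand, with the match in capitals.
Arntl, chr7:113207493-113207522: ttggtcggaaaGTAGGTTAgtggtgcgaca
Arntl, chr7:113207529-113207558: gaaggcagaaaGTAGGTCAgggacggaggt
Nfil3, chr13:52981033-52981062: gatgtgtgttaGTAGGTCAgttccgagcgc
In Arntl, the first match began 39 bases after the start of the counted transcript, and the second began 29 bases after another annotated start at position 113207511. In Nfil3, the match began 12 bases before the start, read along the gene, and lay on the strand opposite to it. The same letters occurred in 2.14% of 32851 promoter windows of all genes. No match to these letters, to the E-box CACGTG (7.15% of all windows) or to the D-boxes TTATGTAA (0.938%) and TTACGTAA (0.119%) was found in the windows of Clock, Npas2 and Rora, and the Rora window belongs to another start than the counted transcript. Arntl and Nfil3 held no E-box or D-box of these letters. Bhlhe40 was not among the windows. The motifs were chosen after promoter sequences had been seen, and a match is a description of the letters, not a measured binding site.

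Reads were counted on 1 transcript per gene. The members lay on 6 chromosomes of mm10, with Npas2 at chr1:39194272-39363240 on the plus strand, Arntl at chr7:113207465-113314126 (plus), Clock at chr5:76209868-76303502 (minus), Nfil3 at chr13:52967209-52981039 (minus), Rora at chr9:69289841-69388246 (plus) and Bhlhe40 at chr6:108660629-108666925 (plus). Exons of Bhlhe40 shared 118 bases with an antisense gene, 0610040F04Rik (1.10 to 2.41 FPKM), those of Rora shared 82 bases with Gm15511 (0.400 to 1.62 FPKM), and those of Arntl shared 33 bases with Gm45355. Without strand, reads in these short stretches cannot be assigned to 1 gene. They are a small part of exon lengths of 3106, 10857 and 2596 bases.

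Levels per exon length spanned a wide range over the 12 libraries. The mean was 0.0368 FPKM for Npas2, 1.16 for Arntl, 4.03 for Clock, 8.36 for Nfil3, 9.94 for Rora and 31.9 for Bhlhe40. Npas2 was below Arntl and Bhlhe40 above Rora with no overlap between libraries. Clock exceeded Arntl within each of the 12 libraries, although the highest Arntl (2.64 FPKM) was above the lowest Clock (2.23 FPKM). The middle of the order was less settled, since Nfil3 exceeded Clock in 10 of 12 libraries and Rora exceeded Nfil3 in 8 of 12.

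Libraries held 15748770 to 23345638 reads, of which 78.1% to 84.3% lay on exons. Of the 8 marker lists, the 5 hepatocyte genes summed to 35665 to 63670 FPKM per library, and the lists for lymphocytes and neutrophils to at most 1.39 FPKM, with Ly6g, which marks neutrophils, at 0 in all libraries. Cholangiocyte genes summed to 2.07 to 4.12 FPKM and the 3 red blood cell genes to 161 to 856 FPKM. The RNA thus carried the markers of liver tissue.

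**Figure D1:**
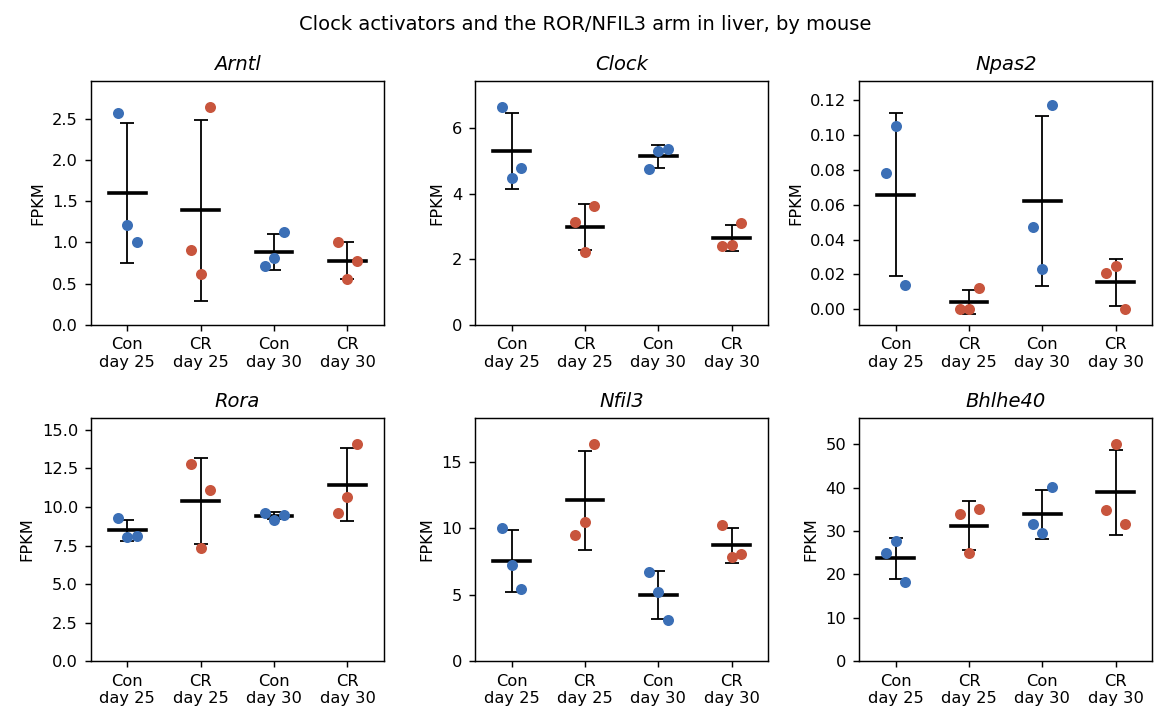
FPKM of each of the 6 genes (vertical axes, linear, a separate scale for each gene) in the 4 groups of 3 mice. Each point is 1 mouse, with Con mice in blue and CR mice in red, the bar is the mean and the whiskers are 1 SD; every CR mouse was below every Con mouse for Clock, and 1 Con and 1 CR mouse of day 25 reached 2.57 and 2.64 FPKM of Arntl.

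Of the activators, Clock was lower under CR at both time points, while Arntl showed no change that passed the test. Clock encodes the partner of BMAL1 in the activating pair. At day 25, Clock was at 6.65, 4.49 and 4.79 FPKM in the Con mice (mean 5.31 ± 1.17, SD, n = 3) and at 3.15, 2.23 and 3.61 FPKM in the CR mice (3.00 ± 0.702). At day 30, it was at 4.75, 5.32 and 5.38 FPKM in Con mice (5.15 ± 0.348) and at 2.40, 2.44 and 3.12 FPKM in CR mice (2.65 ± 0.403). The 6 CR mice were all below the 6 Con mice, with the lowest Con mouse at 4.49 and the highest CR mouse at 3.61 FPKM. The Con mean was 1.77-fold the CR mean at day 25 and 1.94-fold at day 30.

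The test was limma on log2(FPKM + 1), with Benjamini-Hochberg adjustment over the 10593 genes and a call at an adjusted p under 0.1. On this scale the change of a gene with low FPKM is understated. Clock fell, with a difference of -0.66 at day 25 (SE 0.15, adjusted p = 0.0176), -0.76 at day 30 (SE 0.15, adjusted p = 0.00572) and -0.71 over both days with day as a covariate (95% interval -0.93 to -0.49, adjusted p = 0.000297). The call was lost under the study's additional minimum of a 2-fold change on this scale, which no tested member reached and which left 1.48%, 2.21% and 1.66% of all genes called at day 25, at day 30 and over both days. The labels do not state that mice were paired. With the replicate number of the day 25 mice as a block, Clock was also called at that day. The median gene moved by -0.04 at day 25 and by -0.07 at day 30.

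Arntl, the gene of BMAL1, was at 2.57, 1.22 and 1.01 FPKM in Con mice and at 0.909, 0.611 and 2.64 FPKM in CR mice of day 25. At day 30, it was at 0.715, 0.813 and 1.13 FPKM in Con mice and at 1.01, 0.555 and 0.776 FPKM in CR mice. The groups overlapped at both time points, and 1 mouse of each diet at day 25 stood above the other 10 mice. The log2 difference was -0.17 at day 25 (95% interval -0.77 to 0.43, adjusted p = 0.76), -0.09 at day 30 (-0.68 to 0.51, adjusted p = 0.859) and -0.13 over both days (-0.53 to 0.28, adjusted p = 0.637). These intervals leave room for a change in either direction. The sign at day 25 rested on single mice, since the difference was 0.086 without Con replicate 1 and 0.069 without CR replicate 2, and it was -0.52 without CR replicate 3. Without both high mice it was -0.27 (adjusted p = 0.472).

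Npas2, which can take the place of Clock in the pair, was barely detected. Its exons drew 6, 8 and 1 reads in Con mice and 0, 0 and 1 reads in CR mice at day 25, and 4, 2 and 11 reads in Con mice and 2, 2 and 0 reads in CR mice at day 30. The sum was 32 reads in 6 Con mice and 5 reads in 6 CR mice. All CR mice and 2 of the Con mice were under the level that 3 reads are worth, 0.0309 to 0.0458 FPKM depending on the library, so no fold change is given. An exact permutation test of FPKM with labels exchanged within each day, chosen after the values were seen, gave p = 0.015 over both days (2-sided, where 0.005 is the smallest possible). The mean was 0.064 FPKM in Con mice and 0.00967 FPKM in CR mice. In limma without the filter on low values, the log2 difference was -0.07 over both days (adjusted p = 0.0543 over 18362 genes), -0.09 at day 25 (adjusted p = 0.229) and -0.06 at day 30 (adjusted p = 0.32). By the threshold of 0.1, Npas2 was thus called lower over both days in that fit and at neither day alone. The same fit called 4655 of the 18362 genes over both days, 3065 of them lower. The call therefore does not set Npas2 apart from genes in general, and it rests on the few reads given above.

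Of the members tested, Nfil3 was higher under CR, with a call at day 30 and over both days. NFIL3 (E4BP4) represses genes with D-boxes and is itself a target of RORs and REV-ERBs. At day 25, Nfil3 was at 10.1, 7.23 and 5.43 FPKM in Con mice (7.57 ± 2.33) and at 9.52, 10.5 and 16.4 FPKM in CR mice (12.1 ± 3.70). The highest Con mouse was above the lowest CR mouse, and the log2 difference of 0.61 (SE 0.25, 95% interval 0.07 to 1.16, adjusted p = 0.152) was not called. At day 30, it was at 6.73, 5.19 and 3.15 FPKM in Con mice (5.02 ± 1.80) and at 10.3, 7.84 and 8.06 FPKM in CR mice (8.72 ± 1.34). There every CR mouse was above every Con mouse, the CR mean was 1.74-fold the Con mean, and Nfil3 rose by 0.73 on the log2 scale (SE 0.25, adjusted p = 0.0677).

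Over both days, Nfil3 rose by 0.67 (SE 0.17, adjusted p = 0.011), or 1.65-fold between the means of FPKM. The day 30 call was lost without the filter on low values (adjusted p = 0.136) and when 1 of 4 single mice was left out, which were 2 Con mice (adjusted p = 0.115 and 0.23) and CR replicates 1 and 3 (0.212 and 0.103). The difference itself was 0.73 without the filter, 0.77 and 0.48 without either Con mouse, and 0.62 and 0.77 without either CR mouse. At day 25, it ranged from 0.39 without CR replicate 3 to 0.81 without Con replicate 1, where it was called (adjusted p = 0.0993). The rise over both days kept its call without each mouse in turn (adjusted p = 0.00606 to 0.0284).

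Rora encodes RORα, the activator of Arntl, and was not called in any comparison of the diets. It was at 9.26, 8.08 and 8.13 FPKM in Con mice and at 12.8, 7.32 and 11.1 FPKM in CR mice at day 25. At day 30, it was at 9.61, 9.16 and 9.49 FPKM in Con mice and at 9.62, 10.6 and 14.1 FPKM in CR mice. The day 30 groups were apart only by the last digit of the table. The log2 difference was 0.23 at day 25 (adjusted p = 0.427), 0.24 at day 30 (adjusted p = 0.353) and 0.24 over both days (95% interval -0.01 to 0.49, adjusted p = 0.132). Over both days it was called when libraries were scaled to a common median ratio (0.30, adjusted p = 0.073) or quantile normalized (adjusted p = 0.0801), and also without CR replicate 2 of day 25 (0.33, adjusted p = 0.0187) or CR replicate 1 of day 30 (adjusted p = 0.0972), so its call depends on the scaling and on single mice. The day 25 difference was 0.083 without CR replicate 1 and 0.45 without CR replicate 2, where it was called (adjusted p = 0.0761), and the day 30 difference was 0.092 without CR replicate 3. The SD of Rora at day 30 was 0.234 FPKM in the Con mice and 2.35 FPKM in the CR mice.

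Bhlhe40 was the most abundant member and was not called between diets either. It was at 24.9, 27.8 and 18.4 FPKM in Con mice and at 33.8, 24.9 and 35.0 FPKM in CR mice at day 25, and at 31.7, 29.6 and 40.2 FPKM in Con mice and 34.9, 50.1 and 31.6 FPKM in CR mice at day 30. The groups overlapped at both time points. The log2 difference was 0.39 at day 25 (adjusted p = 0.25), 0.18 at day 30 (adjusted p = 0.569) and 0.28 over both days (95% interval -0.02 to 0.59, adjusted p = 0.136). With the median ratio scaling the last was 0.36 (adjusted p = 0.0524) and was called, as it was without CR replicate 2 of day 25 (adjusted p = 0.0936), a Con mouse of day 30 (0.081) or CR replicate 3 of day 30 (0.0744). The day 25 difference was 0.23 without Con replicate 3. At day 30, the sign rested on CR replicate 2, without which the difference was -0.013.

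**Figure D2:**
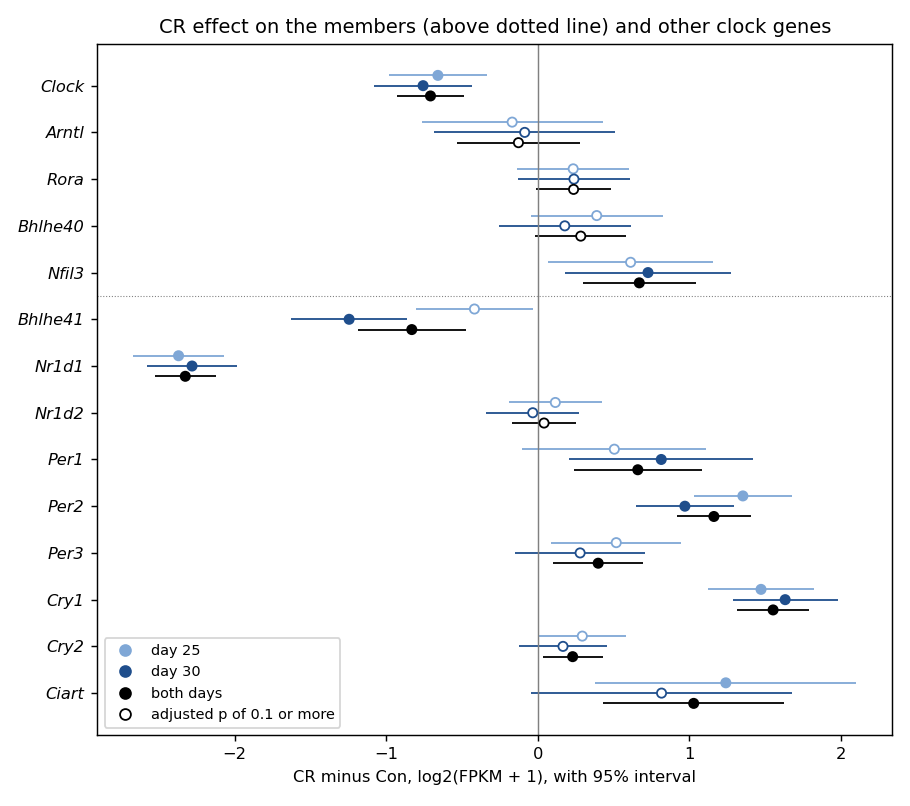
Difference between CR and Con in log2(FPKM + 1) (horizontal axis) for the 5 tested members, above the dotted line, and for other clock genes, at day 25, day 30 and over both days. Points are limma estimates with 95% intervals, filled where the adjusted p was under 0.1; Clock (-0.66, -0.76 and -0.71) and Nr1d1 lay below 0 on both days, whereas Per2 and Cry1 lay above 0.

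Counted together, 1 of the 5 tested members was called at day 25, against 14.9% of all genes tested. At day 30, it was 2 of 5, against 24.7% of all genes, and over both days 2 of 5, against 40.6%. For calls in the lower direction, which among the members were those of Clock alone, the shares of all genes were 9.34%, 16.4% and 26.1%, and in the higher direction, that of Nfil3, they were 5.6%, 8.33% and 14.5%. Among all genes the balance of directions depends on the scaling between libraries, since 37.5% of the calls at day 25 and 33.7% of those at day 30 were in the higher direction in the deposited scaling and 53.8% and 51.6% with median ratio scaling. With 5 genes, these counts do not set the members apart from genes in general. CR mice all below Con mice, as for Clock, were seen in 18% of all genes at day 25, in 24.3% at day 30 and in 8.7% over both days, and CR mice all above Con mice at day 30, as for Nfil3 and Rora, in 12.1%.

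No member's CR effect was shown to differ between the days. The difference between the day 30 and the day 25 effect was -0.10 for Clock (95% interval -0.56 to 0.36), 0.11 for Nfil3 (-0.66 to 0.89), 0.08 for Arntl (-0.76 to 0.93), 0.0048 for Rora (-0.52 to 0.52) and -0.21 for Bhlhe40 (-0.83 to 0.40), each with an adjusted p of 1. Of all genes, 0.00944% were called in this comparison. Between the 2 days within a diet no member was called, against 0.321% of all genes in CR mice and 0% in Con mice, where 765 genes had an unadjusted p under 0.05. The Bhlhe40 values of Con mice did not overlap between the days, at a log2 difference of 0.50 (SE 0.20, adjusted p = 0.628). Con mice of day 30 all above those of day 25 were seen in 7.23% of all genes. The comparisons of diets and of days share mice.

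Among the 3 relatives of the members that are reported here, Bhlhe41 (DEC2), the relative of Bhlhe40, fell by 1.24 at day 30 (adjusted p = 0.000895) and was at -0.42 at day 25 (adjusted p = 0.164). It was at 0.481 to 2.96 FPKM in the 6 Con mice and at 0.208 to 0.433 FPKM in the 6 CR mice, and passed the filter on low values only through Con mice. Arntl2 and Rorb were below the filter.

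Of 8 listed repressors of the clock, without Bhlhe40, 3 rose and 1 fell at each time point. Over both days 6 rose and 1 fell, with a median log2 difference of 0.53 against -0.05 for all genes. Of all genes tested, 5.6% rose and 9.34% fell at day 25, 8.33% and 16.4% at day 30, and 14.5% and 26.1% over both days. The gene that fell was Nr1d1, the gene of REV-ERBα, the repressor that competes with RORα for the element printed above. It fell, with a log2 difference of -2.37 at day 25 (adjusted p = 5.1e-06) and -2.28 at day 30 (adjusted p = 4.02e-06), and its mean was 48.0 FPKM in the 6 Con mice and 8.75 FPKM in the 6 CR mice. Nr1d2, its relative, was at 0.04 over both days (adjusted p = 0.771). Cry1 rose by 1.55 over both days (adjusted p = 2.71e-06), Per2 by 1.16 (adjusted p = 1.98e-05) and Ciart by 1.03 (adjusted p = 0.0137). Lower Clock thus came with higher levels of several genes that the pair is known to switch on, and with a lower level of Nr1d1, another of them.

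The level of Arntl relative to its repressor was compared within each library as the log2 ratio of (FPKM + 1) of Arntl to Nr1d1. It was -3.71, -4.55 and -4.34 in Con mice and -2.36, -2.30 and -1.34 in CR mice at day 25, and -4.99, -4.52 and -4.78 in Con mice and -2.44, -2.68 and -2.59 in CR mice at day 30. All CR mice were above all Con mice, by 2.20 on each day. Over both days the exact permutation test gave p = 0.005 (2-sided), the smallest it can give, and within a day 0.1, the smallest for 3 against 3. Of the 2 genes in the ratio, Nr1d1 was called and Arntl was not. The ratio thus followed Nr1d1, and its p-value is no separate result about Arntl.

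The log2 ratio of Npas2 to Clock, the 2 possible partners of BMAL1, was -2.83, -2.31 and -2.51 in Con mice and -2.05, -1.69 and -2.19 in CR mice at day 25. At day 30, it was -2.46, -2.63 and -2.51 in Con mice and -1.74, -1.75 and -2.04 in CR mice. With the pseudocount of 1, this ratio was higher in CR mice by 0.63 over both days (exact permutation p = 0.005, the smallest possible). Npas2 was near 0, so the ratio followed Clock and the pseudocount. In mean FPKM without a pseudocount, Npas2 was at 0.064 in Con and 0.00967 in CR mice, and Clock at 5.23 and 2.83. Relative to Con mice, Npas2 was thus reduced more than Clock, and the higher ratio came from the pseudocount. With so few reads of Npas2, no shift between the 2 partners is shown in either direction. With a pseudocount of 0.1 the difference was 0.33 (exact permutation p = 0.18).

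**Figure D3:**
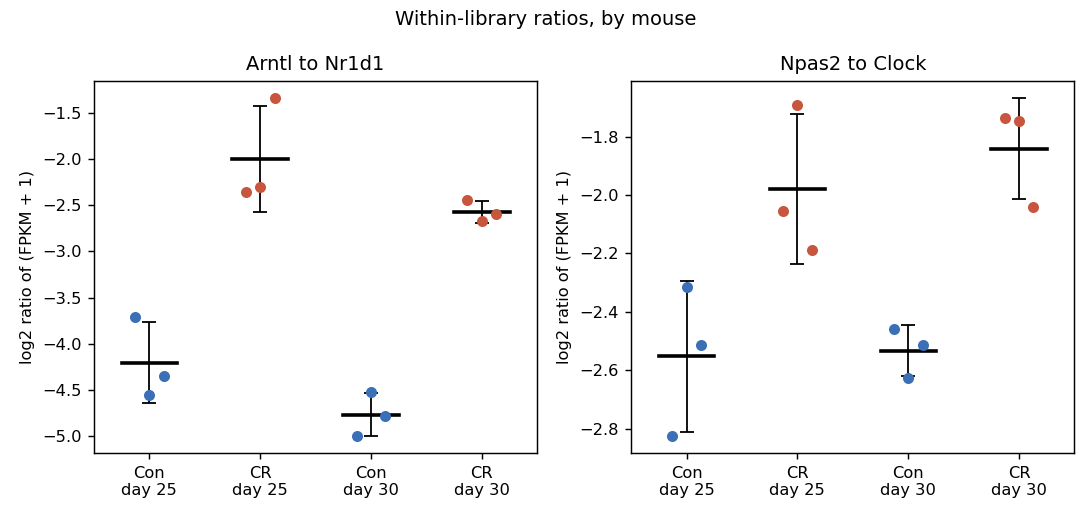
Log2 ratio of (FPKM + 1) within each library (vertical axes) for Arntl to Nr1d1 and Npas2 to Clock in the 4 groups. Each point is 1 mouse, the bar is the mean and the whiskers are 1 SD. In both panels the CR mice lie above the Con mice, by 2.20 and 0.63 over both days. For Npas2 to Clock, this direction came from the pseudocount of 1.

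DBP, TEF and HLF are the activators that NFIL3 opposes at D-boxes. Of their 3 genes, none was called at day 25 or day 30, where 14.9% and 24.7% of all genes were. Tef rose over both days (0.31, adjusted p = 0.023), as did 14.5% of all genes. Dbp was at 52.2 ± 14.5 FPKM in Con mice and at 46.6 ± 11.7 FPKM in CR mice, with a log2 difference of -0.14 over both days (adjusted p = 0.621). A difference of Dbp in the direction opposite to Nfil3 was thus not shown between the diets.

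Between mice of the same group, Arntl and Nfil3 were high where Dbp was low. The Con mouse with 2.57 FPKM of Arntl (day 25, replicate 1) had 26.3 FPKM of Dbp, and the CR mouse with 2.64 FPKM (day 25, replicate 3) had 28.0 FPKM, whereas the other 10 mice had 44.1 to 70.2 FPKM. The same 2 mice had the highest Clock of their groups, and the highest Nfil3, 10.1 and 16.4 FPKM. After subtraction of group means, Pearson's r over the 12 libraries was -0.86 between Arntl and Dbp, 0.79 between Arntl and Clock and -0.73 between Nfil3 and Dbp. It was -0.81 between Nfil3 and Ciart and 0.77 between Clock and Rora. Without those 2 mice, r over the other 10 libraries was -0.24 between Arntl and Dbp, 0.39 between Arntl and Clock and -0.34 between Nfil3 and Dbp, so these 3 relations rested on them. It was -0.75 between Nfil3 and Ciart and 0.91 between Clock and Rora, which did not. These correlations describe libraries of 1 sequencing lane, were picked from 65 pairs of genes and are given without a test.

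**Figure D4:**
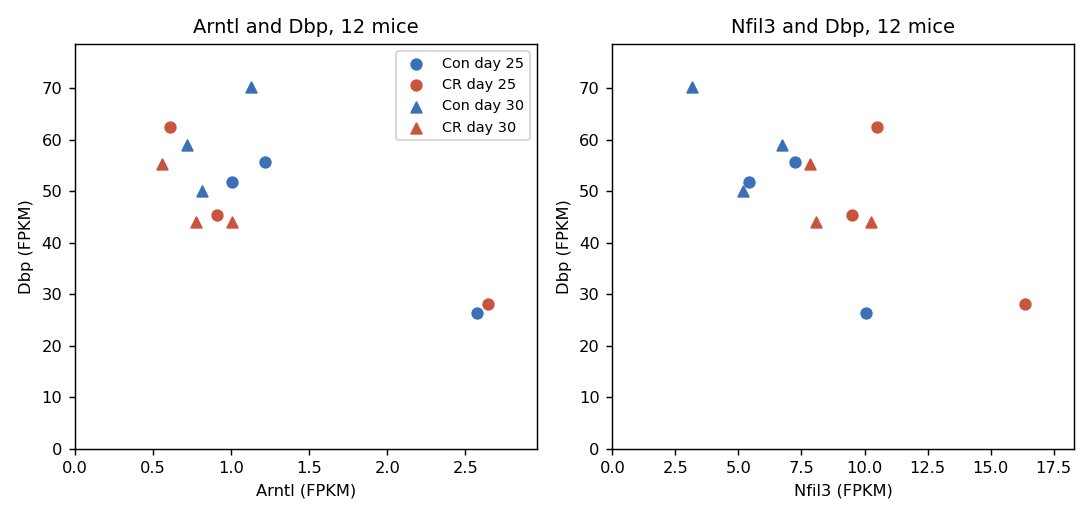
Dbp (vertical axes, FPKM) against Arntl (left) and Nfil3 (right, FPKM) in the 12 mice, with Con in blue, CR in red, day 25 as circles and day 30 as triangles. The 2 mice of day 25 with the highest Arntl, 2.57 and 2.64 FPKM, have the lowest Dbp, 26.3 and 28.0 FPKM.

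The genes of the clock beyond the transcription loops were also taken from lists. Of 8 kinases and ubiquitin ligases that act on clock proteins, Btrc fell at both time points (by 0.39 over both days, adjusted p = 0.00135). Csnk1d rose over both days (0.24, adjusted p = 0.0215), and the others were not called. Of all genes, 9.34% and 16.4% fell at the 2 time points. Over both days 14.5% rose and 26.1% fell, so these calls do not set the list apart. Of 8 rhythmic output genes of the liver, 6 rose and 1 fell at each time point, where 5.6% and 8.33% of all genes rose and 9.34% and 16.4% fell. Gys2, which makes glycogen, rose by 0.93 over both days, Nampt, an enzyme of NAD synthesis, by 0.97, Por by 1.40 and Wee1, a cell cycle kinase, by 0.91, with adjusted p of 3.18e-05, 4.93e-05, 5.17e-05 and 0.000139. Elovl3, a fatty acid elongase, fell by 2.75 (adjusted p = 0.00042). Of 5 tested genes that respond to temperature or heat shock, Cirbp fell by 0.73 over both days (adjusted p = 0.00227). Cirbp encodes a cold-inducible RNA-binding protein reported to act on Clock mRNA. Among the same 5, 2 heat shock genes rose, Hspa1b by 0.67 (adjusted p = 0.00659) and Hsph1 by 0.46 (adjusted p = 0.089). Of all genes, 26.1% fell and 14.5% rose. Hspa1b was low, with a mean of 0.545 FPKM in Con mice, under the filter level of 1, and 1.48 FPKM in CR mice.

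Genes that follow feeding were set beside the members because meal time differed between the diets. Of the 7 genes that rise on fasting and are reported here, which are not the whole list, 5 rose over both days, as did 14.5% of all genes. Ppargc1a, a coactivator that works with RORα, rose by 0.92 (adjusted p = 0.00166), and Angptl4, an inhibitor of lipoprotein lipase, rose by 0.62 (adjusted p = 0.00284). Of 7 tested genes that rise on feeding, 2 rose, Pklr (0.31, adjusted p = 0.0109) and Acaca (0.25, adjusted p = 0.0641), with a median of 0.13, beside the same 14.5% of all genes. The part of feeding state in the values of Clock and Nfil3 was not tested.

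Cell type markers differed between the diets as well. The 5 hepatocyte genes summed to 43117 to 50033 FPKM in Con and 49492 to 52821 FPKM in CR mice at day 25. At day 30 they summed to 35665 to 44545 and 52518 to 63670 FPKM, and the groups did not overlap. Of the 5 genes, 3 rose at day 30 (8.33% of all genes), while 1 other had all CR mice below all Con mice (24.3% of all genes). Over both days 2 rose and 1 fell, against 14.5% and 26.1% of all genes. The 6 genes of Kupffer cells and macrophages summed to 38.6 to 63.1 FPKM in Con and 23.9 to 31.6 FPKM in CR mice at day 25. At day 30 they summed to 33.1 to 49.4 and 33.0 to 44.1 FPKM. Of these 6 genes, 4 fell at day 25 (9.34% of all genes), and 1 rose and 0 fell at day 30 (8.33% and 16.4%). Over both days 1 rose and 3 fell, against 14.5% and 26.1% of all genes. The 4 stellate cell genes summed to 60.8 to 67.4 and 72.5 to 80.5 FPKM at day 25, and to 52.7 to 68.2 and 76.3 to 92.2 FPKM at day 30. The 4 endothelial genes summed to 26.5 to 39.4 and 33.4 to 43.2 FPKM at day 25, and to 26.7 to 29.7 and 34.6 to 41.0 FPKM at day 30. No gene of these 4 lists was at 0 in all libraries, and their part in the levels of Clock and Nfil3 was not tested.

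For each tested member, the genes with the most similar pattern over the 12 libraries were taken by Pearson's r of log2(FPKM + 1). They were the 3 with the highest r among tested protein-coding genes other than members. For Clock these were Acnat1 (0.98), Sp1 (0.97) and Rai14 (0.97), and for Nfil3 Meaf6 (0.96), Vps37b (0.92) and Atoh8 (0.91). For Rora they were Fam178a (0.96), BC005537 (0.95) and Rc3h1 (0.93), for Arntl Pet117 (0.90), Fst (0.85) and Map4k4 (0.84), and for Bhlhe40 Rab33b (0.88), Add3 (0.87) and Snx14 (0.87). After subtraction of group means, r was 0.77 to 0.97 over these 15 pairs. The genes had been picked by r over the same 12 libraries, so these values cannot show a likeness apart from that choice. They were not recalculated without the mice of highest Arntl. For each member, the r by which the genes were picked are the highest among those protein-coding genes and carry no test.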

How the data were processed

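RNA of 12 mouse livers was sequenced as paired-end reads on a single lane. The submitters' processing notes name CASAVA 1.8.2, FastQC, BWA, mm10 and DESeq2. The authors deposited FPKM values, which the file header records as HOMER counts on exons, with 1 transcript per gene, no scaling between libraries and no strand option. The depth of each library came from the spacing of its low FPKM, where 100% of values were whole reads within 0.1.

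From the deposited FPKM, log2(FPKM + 1) was analyzed with limma 3.58.1 in R 4.3.3, because a count test needs counts. The model held the 4 groups and used empirical Bayes moderation with a trend. Both days together were fitted with day as a covariate. Tests were 2-sided, and calls used a Benjamini-Hochberg adjusted p under 0.1, the false discovery rate of the study. Tables used Python 3.11.15 with numpy 2.4.6 and pandas 2.3.3, and figures matplotlib 3.10.9. Simulated data with known changes, all larger than those of the tested members, were used to check that the model ran as intended. Changes of the members' size were not simulated.

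Members, gene lists and the rule for named genes were chosen with earlier results of these data known. Some items of the lists of relatives and of fasting genes are not reported here, and the counts of those lists leave them out. The rule took every member, up to 4 called genes per list by adjusted p over both days, the genes of the 2 ratios and, for each tested member, the 3 most similar genes. Nr1d2, Dbp, Elovl3, Arntl2, Rorb, Ly6g and the overlapping antisense genes were named in addition. Deviations from group means had r of 0.37, 0.31 and 0.11 over genes between same-numbered mice of day 25. Their numbers, taken from the labels, were treated as pairs in an alternative. The labels state no pairing, and differently numbered CR mice of the 2 days reached an r of 0.34. The 3 Con columns of day 30 could not be tied to single samples and have no number. P-values measure the spread between these mice. Alternatives covered the pseudocount, filter, scaling, moderation, thresholds, voom on the recovered reads, single days, the block and each mouse left out.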

Additional observations from a re-analysis of the deposited data

How the results depend on the processing

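Clock was called at each day and over both days under every alternative run other than the 2-fold minimum, and Nfil3 over both days likewise. No difference of Clock, Nfil3 or Rora between the diets changed sign in any alternative run. The 6 CR libraries held 0 to 2 reads each of Npas2, under the floor of 3 reads. The cause of the changes below was not tested, except that the stricter thresholds call fewer genes by construction.

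With the 2-fold minimum, 157 genes were called at day 25, 234 at day 30 and 176 over both days, with 0 members each time, and 15 between the days in CR mice. At an adjusted p under 0.05, 969 genes were called at day 25, 1740 at day 30 (1 member), 0 in the difference between days and 7 between the days in CR mice. Without the filter on low values, 2421 of 18362 genes were called at day 30 (1 member), and 8 genes between the days in CR mice. With median ratio scaling 4 of the 5 tested members were called over both days, as were 4224 of all 10593 genes. Of all calls in that setting, 52.8% were in the higher direction, against 35.7% in the deposited scaling and 50.6% with quantile normalization. The log2 ratio of Npas2 to Clock differed by 0.33 with a pseudocount of 0.1.

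The difference between days had 3 calls with a pseudocount of 0.1 and with robust moderation, and 0 with a mean FPKM filter, quantile normalization or voom. Under TPM that of Rora was -0.011. The CR mice differed between days in 21 genes with a pseudocount of 0.1 and in 52 with voom, and the Con mice in 1 gene with a pseudocount of 0.1, TPM or robust moderation. Without Con replicate 1 and CR replicate 3 of day 25, left out together after their values were seen, 569 genes were called at day 25, 4 in the difference between days, 15 between the days in CR mice and 24 in Con mice.

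Leaving out each mouse in turn gave 893 to 1589 calls at day 25 (1 to 2 members), with the lowest count without CR replicate 3 and with 1000 and 1004 calls without Con replicate 1 and CR replicate 1. It gave 1497 to 2680 at day 30 (1 to 2 members), with the lowest without CR replicate 1, and 3698 to 4198 over both days (2 to 4 members). The difference between days had 0 to 5 calls, the days in CR mice 2 to 45 and in Con mice 0 to 22. The difference of Arntl was -0.52 to 0.086 at day 25 and -0.18 to 0.0081 at day 30, and that of Bhlhe40 at day 30 was -0.013 to 0.31. The differences between days ranged from -0.17 to 0.43 for Arntl, from -0.24 to 0.013 for Clock, from -0.21 to 0.16 for Rora and from -0.13 to 0.33 for Nfil3. Nr1d2 ranged from -0.017 to 0.095 over both days. Acaca lost its call over both days without any 1 of the 6 mice of day 30 (adjusted p up to 0.138). Hsph1 lost its call without the filter (adjusted p = 0.16), under TPM (0.123), with robust moderation (0.115) and without several single mice (up to 0.185).

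With the replicate number as a block, 2077 genes were called at day 25, and the block changed no call of a member there (Clock, adjusted p = 0.0245). The CR mice of the 2 days share only a number (r of -0.38, 0.30 and 0.08 between same-numbered mice), and the block gave 39 calls between them, against 34 without it.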
